A study of Mus musculus with 13 samples.

Results

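The smooth muscle contractile genes described here are 10 genes chosen by symbol from general knowledge of the contractile apparatus: Acta2, Actg2, Myh11, Myl9, Cnn1, Tagln, Lmod1, Smtn, Des and Synpo2. All 10 were found among the 53465 genes of the deposited table, and all 10 were among the 17277 genes tested, which had at least 1 TPM in at least 3 libraries. TPM is a gene's share of the library's transcripts after division by its length, on a scale with the same total in every library. RNA-seq was made from whole tissue of 3 ovaries of non-treated wild-type (WT) C57BL/6 mice and 10 non-treated MP tumors. An MP tumor grew in a WT C57BL/6 female, 8 to 12 wk old at surgery, whose ovary was electroporated with a vector carrying Cas9 and an sgRNA to Trp53, a transposon vector carrying MYC, and the Sleeping Beauty transposase, giving the genotype named Myc;p53-/-. Electroporation does not select a cell type, tumors were taken at endpoint, and the labels attach the same surgical protocol and age to the WT ovaries without saying that these were operated on or how old they were when taken. The library names carry a number, which was the same for the 3 WT ovaries and MP tumors 1 to 3 (set A here). MP tumors 4 to 6 (set B) and 7 to 10 (set C) carried numbers of their own, with no WT ovary beside them.

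Smooth muscle contracts when calcium leads to phosphorylation of the myosin light chain, which lets smooth muscle myosin pull on actin filaments anchored in dense bodies and in the plasma membrane. Calponin, transgelin, smoothelin and leiomodin bind or build those actin filaments, and desmin filaments tie the dense bodies together. In the ovary this apparatus is known from vessel walls, from the theca around follicles and from the stroma, while Acta2, Tagln and Myl9 are also used by myofibroblasts and other cells.

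Many smooth muscle genes are switched on by serum response factor (SRF) with its cofactor myocardin, and SRF binds a sequence called the CArG box. A promoter sequence of RefSeq on GRCm38.p6, here the 250 bases before the start, was held for 7 of the 10 genes (Acta2, Cnn1, Des, Lmod1, Smtn, Myl9 and Synpo2) and not for Tagln, Myh11 or Actg2. An exact CArG box on either strand was found in 1 of the 7 windows, against 1.47% of 32851 windows of all genes. A box with at most 1 mismatch in its core of 6 bases was found in 2 of the 7, against 8.59% of all windows. The windows of Acta2 and Myl9 are printed because they held a match and because the levels of these genes in the tumors differed in how far they overlapped the WT ovaries. The boxes stand in capitals, the Acta2 window is chr19:34255374-34255623 on the minus strand, and the Myl9 window is chr2:156775214-156775463 on the plus strand.
Acta2: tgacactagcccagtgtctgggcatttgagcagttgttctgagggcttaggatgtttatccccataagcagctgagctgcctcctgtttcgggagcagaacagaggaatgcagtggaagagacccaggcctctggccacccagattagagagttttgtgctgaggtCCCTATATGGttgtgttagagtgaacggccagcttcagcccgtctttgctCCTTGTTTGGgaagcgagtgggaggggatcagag
Myl9: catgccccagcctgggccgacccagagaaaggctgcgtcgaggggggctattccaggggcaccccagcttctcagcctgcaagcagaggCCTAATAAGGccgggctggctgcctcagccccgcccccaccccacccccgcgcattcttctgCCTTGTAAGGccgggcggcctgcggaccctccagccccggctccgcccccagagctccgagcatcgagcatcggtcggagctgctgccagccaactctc
In Acta2, CCCTATATGG lay at -84 to -75 and CCTTGTTTGG at -34 to -25 relative to the start, each with 1 mismatch in the core. In Myl9, CCTAATAAGG, an exact box, lay at -161 to -152 and CCTTGTAAGG, with 1 mismatch, at -99 to -90. A match is a string of letters and was not tested as a binding site.

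Reads worked back from the table came to between 31445004 and 64013840 per WT ovary and between 3892690 and 19906507 per MP tumor. Of the 100 values of the 10 genes in the 10 tumors, 19 rested on fewer than 10 reads and 1 on 0 reads. Trp53 stood at 80.7 to 85.4 TPM in the WT ovaries and at 4.30 to 26.0 TPM in 9 tumors, but at 187 TPM in the library labelled MP tumor 10. RNA level does not show whether a gene was cut. Values without that library are given for the genes it led and for results that it moved. In MP tumor 2, 10 genes took 55.1% of all TPM, against at most 20.6% in any other library. Without MP tumor 2, and likewise without the library labelled MP tumor 10, the count of genes called lower among the 10 was 6, as with all libraries. Over all 17277 tested genes the count was 2403 and 2968 in these fits, against 2463 with all libraries. Summed markers of ovarian somatic and germ cells were 11847 to 15989.5 TPM in WT ovaries and 19.4 to 1625 TPM in tumors, and 10 of the 11 such markers were lower in the tumors.

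Of the 10 genes, 6 were lower in MP tumors than in WT ovaries (limma on log2(TPM + 1), adjusted P under 0.05): Myh11, Lmod1, Actg2, Cnn1, Acta2 and Tagln. None was higher, also at an unadjusted P under 0.05, and the count was 0 in each of the 23 alternative fits. The other 4, Smtn, Myl9, Des and Synpo2, did not pass the test. Among all tested genes, 14.3% were lower and 2.51% were higher. In 5 of the 10 genes every tumor lay below every WT ovary, against 16.4% of all tested genes, and in 0 did every tumor lie above every WT ovary, against 3.02%. The median log2 fold change of the 10 genes was -2.81, against -0.58 over all tested genes, of which 69.9% had a negative value. After median-of-ratios scaling, which moved the median of all genes to -0.02, the median of the 10 genes was -2.17 and 5 were lower, Tagln having lost its call, while 11% of all genes were lower and 7.37% higher. After a per-library correction for gene length, 6 of the 10 and 9.24% of all genes were lower. In bulk tissue, fewer cells of a type and less RNA per cell cannot be told apart. Fold changes on the log2(TPM + 1) scale understate the change of genes at low TPM.

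**Figure D1:**
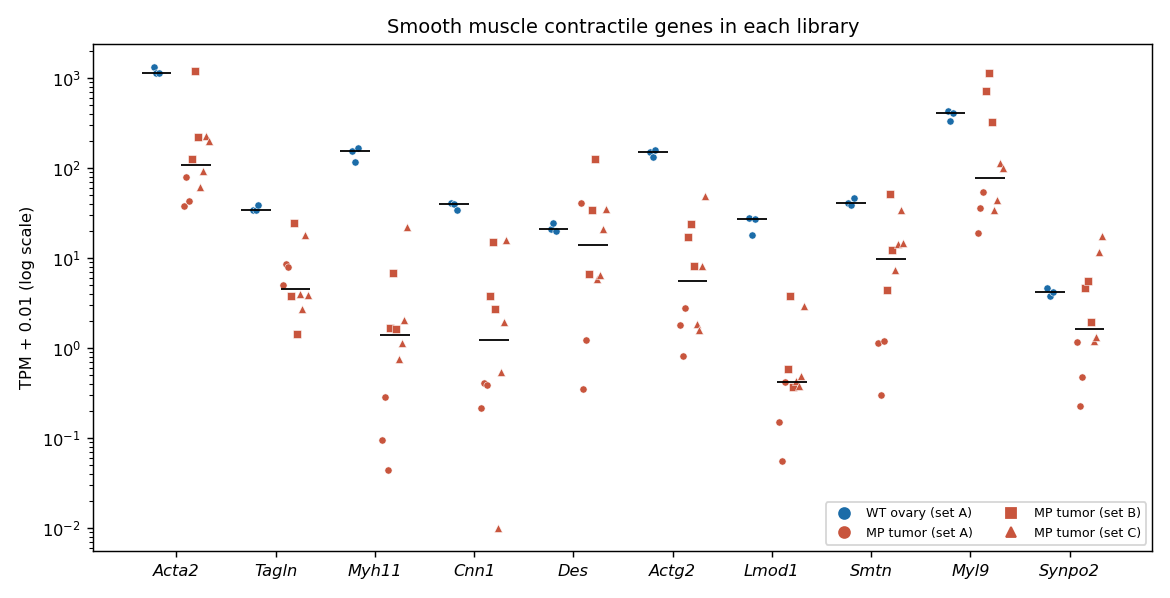
TPM of each of the 10 genes (TPM + 0.01, log scale) in the 3 WT ovaries and 10 MP tumors, 1 point a library, with marker shapes for sets A to C and a bar at the group median. In Tagln, Myh11, Cnn1, Actg2 and Lmod1 every tumor lay below every WT ovary, and in Des and Synpo2 the tumors lay on both sides.

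Myh11, the heavy chain of smooth muscle myosin and the most specific gene of the group for mature smooth muscle, showed the largest log2 fold change of the 10. It stood at 153, 118 and 168 TPM in the WT ovaries, and ranged from 0.0344 TPM through a median of 1.37 TPM to 22.3 TPM in the tumors. All 10 tumors lay below all WT ovaries, and the highest, the library labelled MP tumor 10, stood well apart from the next, MP tumor 5 at 6.79 TPM. The mean was 147 ± 25.8 TPM (SD, n = 3) for WT and 3.67 ± 6.83 TPM (SD, n = 10) for MP. On the log2 scale the change was -5.76 ± 0.77 (SE, limma adjusted P = 9.28e-05). Without the library labelled MP tumor 10 it was -6.10.

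Myl9, the regulatory light chain whose phosphorylation starts contraction, is expressed beyond smooth muscle. In the WT ovaries it was at 434, 334 and 407 TPM, and in the tumors between 18.9 and 1146 TPM with a median of 77.8 TPM. All but 2 tumors were below all WT ovaries, but MP tumor 4 at 717 TPM and MP tumor 5 at 1146 TPM were above all of them. Its log2 fold change was -1.86 ± 1.03 (SE), which did not pass the test (limma adjusted P = 0.215). The 2 chains of the same motor thus differed in whether tumors overlapped the WT ovaries, a difference given here as a description.

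Acta2, the vascular smooth muscle actin that myofibroblasts also make, was the most abundant of the 10 genes in WT ovaries, at 1327, 1136 and 1143 TPM. In the tumors it ranged from 37.4 TPM through a median of 109 TPM to 1186 TPM. The other 9 tumors lay below every WT ovary, the highest of them at 229 TPM, and MP tumor 5 alone fell within the WT range. Its log2 fold change was -3.23 ± 0.77 (SE, limma adjusted P = 0.0102). The call was lost without WT ovary 1 (adjusted P = 0.058) or without WT ovary 3 (adjusted P = 0.0517), with the same direction.

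Actg2, the gamma actin typical of visceral smooth muscle, was at 153, 131 and 157 TPM in the WT ovaries and between 0.809 and 48.3 TPM in the tumors, with a median of 5.50 TPM. No tumor reached the WT range, and the library labelled MP tumor 10 was the highest, ahead of MP tumor 5 at 23.9 TPM. Actg2 changed by -4.41 ± 0.87 on the log2 scale (SE, limma adjusted P = 0.00299), or by -4.72 without the library labelled MP tumor 10. The non-muscle actins gave other values: Actb, the beta actin of all cells, averaged 2233 ± 82.6 TPM in WT ovaries and 1480 ± 774 TPM in tumors (log2 fold change -0.77, adjusted P = 0.223), and Actg1 had a log2 fold change of -1.23 (adjusted P = 0.276). Among the libraries of set A both were lower, with log2 fold changes of -1.66 for Actb (limma adjusted P = 0.0042) and of -3.23 for Actg1 (adjusted P = 0.000877).

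Cnn1 encodes calponin, which binds actin and slows the myosin motor. It was at 40.8, 39.8 and 34.4 TPM in the WT ovaries, and in the tumors it ranged from 0 through a median of 1.23 to 16.0 TPM. The tumors and WT ovaries did not overlap, and only MP tumor 5 (15.0 TPM) and the library labelled MP tumor 10 (16.0 TPM) exceeded 4 TPM. The 0 was in MP tumor 7, where 3 reads, the limit that a count of 0 allows, correspond to 0.453 TPM for counting error alone. Calponin RNA had a log2 fold change of -3.73 ± 0.82 (SE, limma adjusted P = 0.00621), or of -4.01 without the library labelled MP tumor 10.

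Lmod1, leiomodin, nucleates and lengthens smooth muscle actin filaments. Its WT values were 27.5, 18.2 and 26.9 TPM, against a tumor range of 0.0456 to 3.80 TPM and a median of 0.411 TPM. All tumors were below all WT ovaries, and MP tumor 5 and the library labelled MP tumor 10 (2.93 TPM) were again the highest. The log2 fold change of -3.87 ± 0.47 had the smallest SE of the 10 genes on the log2(TPM + 1) scale (limma adjusted P = 3.58e-05). With 0.1 TPM added instead, its SE was 0.88, above that of Acta2 (0.78) and Tagln (0.71).

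Tagln, transgelin or SM22, an actin-bundling protein that appears early in smooth muscle and in myofibroblasts, was at 34.3, 33.8 and 38.6 TPM in the WT ovaries. In the tumors it ranged from 1.43 through 4.46 (median) to 24.3 TPM. The groups did not overlap, with MP tumor 5 highest and MP tumor 9 next at 17.8 TPM. Its change was -2.40 ± 0.61 on the log2 scale (SE, limma adjusted P = 0.0149), but it was -1.70 (adjusted P = 0.0892) after median-of-ratios scaling, and the call was also lost after quantile normalization or without any 1 of the WT ovaries. Its value is uncertain, because 67.9% of its exonic bases overlap Pcsk7 or Gm48529 on the opposite strand and the counting is not stated to use strand. The gene lies at chr9:45929619-45936058 on the minus strand of GRCm38.

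Smtn, smoothelin, is a filament protein of contractile smooth muscle. WT ovaries had 40.6, 38.8 and 47.0 TPM, and the tumors ranged from 0.288 through a median of 9.80 to 51.8 TPM. As many as 9 tumors were below all WT ovaries and MP tumor 5 was above all of them. A log2 fold change of -2.37 ± 0.96 (SE) did not pass the test (limma adjusted P = 0.099), whereas without MP tumor 5 it did (adjusted P = 0.0416). Non-coding genes on the opposite strand overlap 16.3% of its exonic bases.

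Des, desmin, the intermediate filament of all muscle types, was at 20.9, 24.5 and 19.9 TPM in the WT ovaries. The tumors spanned 0.336 to 126 TPM with a median of 14.0 TPM, the highest being MP tumor 6 and the next MP tumor 1 at 41.0 TPM. In all, 5 tumors lay below all WT ovaries, 4 above all of them and 1 between. Desmin RNA changed by -0.77 ± 1.08 on the log2 scale with no call (SE, limma adjusted P = 0.628), and the value turned to 0.015 after the correction for gene length. Skeletal muscle also makes desmin, and markers of skeletal muscle moved in some of the tumors. The 16 skeletal markers summed to 15.5 to 16.9 TPM in WT ovaries and to 16.2 to 1944 TPM in tumors, the highest being MP tumor 1 with 0 of the 16 listed at 0. In MP tumor 6, where Des was highest, the sum was 154 TPM and 4 of the 16 were at 0, as in 2 of the WT ovaries. MP tumors 7 and 8 had the next highest sums after MP tumor 1, 420 and 229.6 TPM, but Des at 5.83 and 6.40 TPM, below every WT ovary. In MP tumor 7, 8 of the 16 markers were at 0 and Ckm (319.7 TPM) and Mylpf (97.6 TPM) held most of the sum, whereas 2 of the 16 were at 0 in MP tumor 8. Of the 9 such markers tested 1 was higher and 0 were lower, against 2.51% and 14.3% of all tested genes. By voom 2 were higher and 0 lower, against 10.9% and 23.4%. With set A alone 1 was higher and 1 lower, against 6.44% and 57.3%. The marker higher with all libraries was Ckm, the muscle creatine kinase (0.151 ± 0.157 TPM in WT ovaries, 109 ± 170 TPM in tumors, log2 fold change 4.85, limma adjusted P = 0.0235). Ckm lost its call without any 1 of the WT ovaries. The part of skeletal muscle RNA in the Des values was not tested.

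Synpo2, which encodes the actin-bundling protein myopodin of dense bodies and Z discs, was the least abundant of the 10 in the WT ovaries, at 4.67, 3.78 and 4.13 TPM. In the tumors it ranged from 0.219 through a median of 1.62 to 17.4 TPM. There were 6 tumors below all WT ovaries and 3 above all of them: MP tumor 5, MP tumor 9 and the library labelled MP tumor 10. The log2 fold change was -0.48 ± 0.73 (SE, limma adjusted P = 0.654), or -0.74 without the library labelled MP tumor 10, and it turned to 0.25 after quantile normalization and to 0.65 after the correction for gene length.

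**Figure D2:**
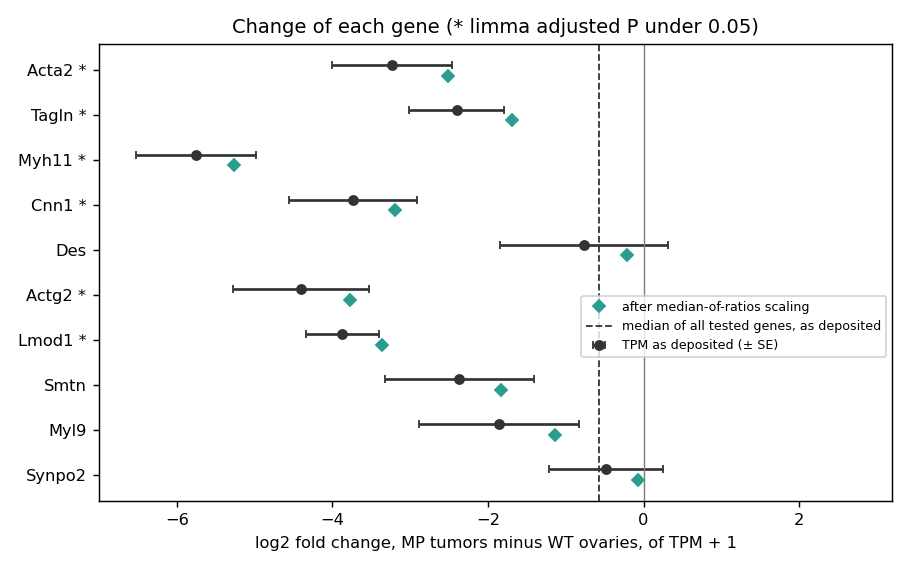
Log2 fold change (MP tumors minus WT ovaries, of TPM + 1) of each gene, as points with SE for TPM as deposited and as diamonds after median-of-ratios scaling, with the median of all tested genes (-0.58) as a dashed line. The 6 genes with an asterisk passed the limma test, from Myh11 at -5.76 to Tagln at -2.40, while Des (-0.77) and Synpo2 (-0.48) lay near the dashed line.

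MP tumors 1 to 3, the only ones that share a library number with the WT ovaries, held low values of most of these genes, but Des was above every WT ovary in MP tumor 1. With the 6 libraries of set A alone, 9 of the 10 genes were lower (limma adjusted P under 0.05), all but Des, but so were 57.3% of all tested genes, and 0 of the 10 were higher, against 6.44%. With the replicate number as a block the counts were also 9 and 0, against 56.9% and 6.34%, and with library number as a covariate they were 8 and 0, against 49.4% and 5.17%. Both fits gave each of the 10 genes the same log2 fold change as set A alone, since all WT ovaries are in set A. The median log2 fold change was then -4.47 for the 10 genes and -1.19 for all tested genes. Myh11 averaged 0.130 ± 0.125 TPM in MP tumors 1 to 3 and 5.18 ± 7.82 TPM in MP tumors 4 to 10, and for Myl9 the means were 36.4 ± 17.7 TPM and 355 ± 424 TPM. The high Myl9 values were those of set B, at 717, 1146 and 328 TPM in MP tumors 4 to 6. In set C, MP tumors 7 to 10, Myl9 was at 34.5, 44.6, 114 and 101 TPM. Actg2 averaged 1.79 ± 0.987 TPM in MP tumors 1 to 3 and 15.6 ± 16.5 TPM in MP tumors 4 to 10. Tagln, whose value is uncertain because of its overlap with genes on the opposite strand, differed from this pattern, with 7.13 ± 1.90 TPM against 8.25 ± 8.97 TPM. Its level in 5 of the 7 tumors of sets B and C was below that in all 3 of set A. Within set A the log2 fold change was -7.02 for Myh11, -5.79 for Actg2, -4.57 for Smtn, -3.50 for Myl9 and -1.73 for Synpo2. For MP tumors 4 to 10, library number and condition cannot be told apart.

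The tumors differed widely among themselves. The 10 genes together made up 1878 to 2236 TPM in WT ovaries, and 107 TPM in MP tumor 1 to 2498 TPM in MP tumor 5, with a tumor median of 303 TPM. MP tumor 5 was among the top 2 tumors for 8 of the 10 genes, the library labelled MP tumor 10 for 5, and MP tumor 9 for 4. MP tumors 5 and 9 also had the highest tumor sums of fibroblast markers (2488 and 4715 TPM, against 1362 to 2346 TPM in WT ovaries), of endothelial markers (323 and 321 TPM, against 486 to 525 TPM) and of mural markers (376 and 543 TPM, against 479 to 552 TPM). MP tumors 4 and 6 went another way, with 885 and 702 TPM in the 10 genes, above the 441 TPM of MP tumor 9. Their sums were 220 and 313 TPM for fibroblast, 81.9 and 64.2 TPM for endothelial and 76.7 and 129 TPM for mural markers. The library labelled MP tumor 10 had 460 TPM in the 10 genes, and fibroblast, endothelial and mural sums of 362, 136 and 187 TPM. Cytoskeletal relatives used outside smooth muscle summed to 5701 TPM in MP tumor 5, against 4607 to 4629 TPM in WT ovaries. The part of these cells in the contractile genes' values was not tested. In MP tumors 2, 3, 7 and 8 all 10 genes were below every WT ovary. In MP tumor 5 only 5 of the 10 were, and the other 5 were within the WT range (Acta2) or above it (Smtn, Myl9, Des and Synpo2). Most of the sum in MP tumor 5 came from Acta2 and Myl9, with Myh11 at 6.79 TPM there. The library labelled MP tumor 10 had another mix, with Myh11, Cnn1, Actg2 and Synpo2 at their tumor maximum but Acta2 at 198 TPM and Tagln at 3.88 TPM.

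**Figure D3:**
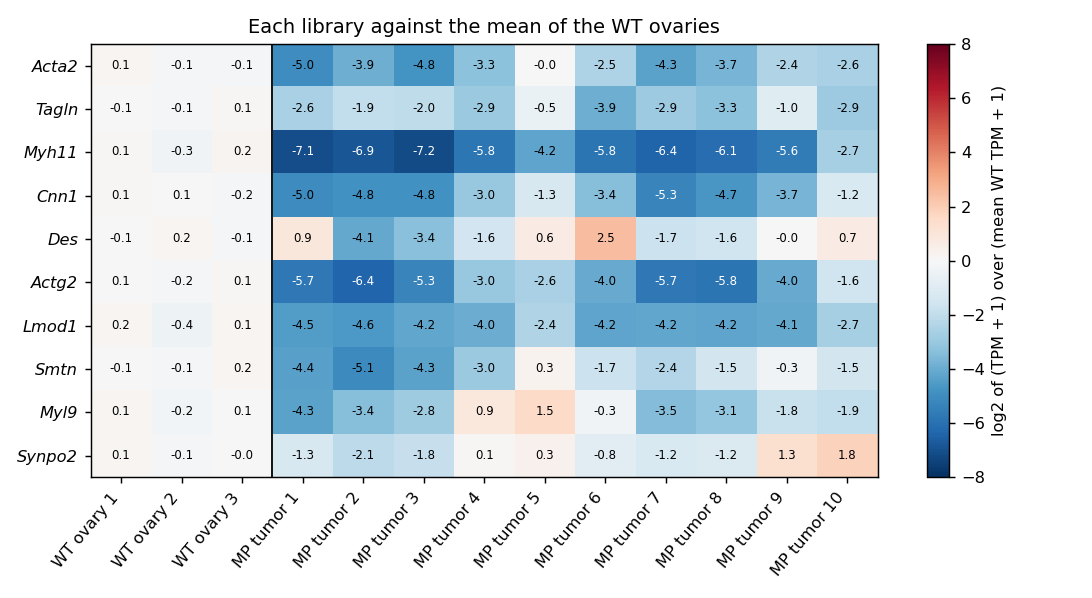
Heat map of the 10 genes (vertical axis) in the 13 libraries (horizontal axis), each cell giving log2 of TPM + 1 over the mean WT TPM + 1 of that gene. MP tumors 1 to 3, 7 and 8 were low across most genes, while MP tumor 5 was near or above WT for Acta2, Smtn, Myl9, Des and Synpo2 and low for Myh11, Actg2, Cnn1 and Lmod1.

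To compare the size of the changes within each library, 3 of the genes were set against Acta2 as log2((gene + 1)/(Acta2 + 1)). The 1 TPM added to each term weighs most where Myh11 was low, and with 0.1 TPM in its place the Myh11 difference given next was -3.61 (exact permutation P = 0.00699). For Myh11 the ratio was -3.04 ± 0.26 (SD, n = 3) in WT and -5.57 ± 1.09 (SD, n = 10) in MP, a difference of -2.53 (2-sided exact permutation test over 286 choices of 3 libraries, P = 0.0105, Benjamini-Hochberg adjusted over 3 ratios 0.0315). It was below all WT ovaries in 9 of 10 tumors, and the library labelled MP tumor 10, at -3.09, lay within the WT range. Without that library the difference was -2.81, and among the libraries of set A it was -2.47 (exact P = 0.1, the smallest that 3 against 3 can give). The ratio of Actg2 to Acta2 was -3.02 ± 0.14 in WT ovaries and -4.20 ± 1.17 in tumors, with 8 tumors below all WT ovaries and 2 above (exact permutation P = 0.126, adjusted 0.126). Without the library labelled MP tumor 10 its unadjusted exact P was 0.0364. The ratio of Des to Acta2 rose from -5.73 ± 0.23 to -3.26 ± 1.84 on average and was above all WT ovaries in 9 of 10 tumors, but the difference of 2.46 did not pass after adjustment (exact permutation P = 0.042, adjusted 0.0629), and without the library labelled MP tumor 10 it was 2.37 (unadjusted exact P = 0.0545). Myh11 was thus lower by more than Acta2, the test for which is the first of the 3 ratios.

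**Figure D4:**
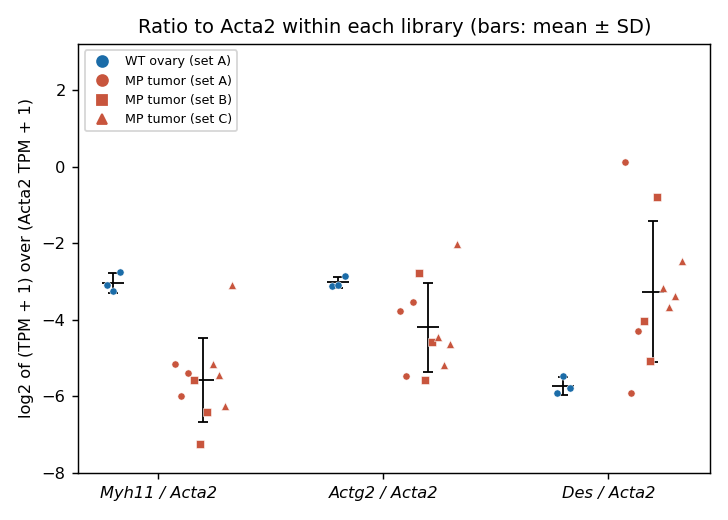
Log2 ratio of Myh11, Actg2 and Des to Acta2 (each TPM + 1) within each library, 1 point a library, for 3 WT ovaries and 10 MP tumors, with bars at the mean ± SD of each group. For Myh11 the tumors averaged -5.57 against -3.04 in WT ovaries, and 1 tumor point lay within the WT range.

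Across the 10 tumors, the 45 pairs among the 10 genes had a median Pearson r of 0.631 on the log2(TPM + 1) scale, a description over libraries that also share depth and scale. The r of pairs of other genes was not taken, so this median has no background to be read against. The pair with the highest r was Cnn1 and Actg2 (0.952), followed by Myh11 and Cnn1 (0.918) and by Cnn1 and Lmod1 (0.904). Tagln, whose value is uncertain because of its overlap with genes on the opposite strand, stood apart, with r of -0.161 to Des and 0.116 to Myh11. Without the library labelled MP tumor 10 the median r was 0.679 over 9 tumors, the highest r was that of Acta2 and Myh11 (0.966), and that of Tagln and Myh11 was 0.409. Among 10920 other genes with a mean of at least 5 TPM in the tumors, those most like the mean z-score of the 10 genes over the 10 tumors were Iqsec2 (r = 0.965), Hipk2 (0.959), Ptk2b (0.957), Cmtm3 (0.953), Fam110a (0.951), Clcn5 (0.950), Dlg5 (0.950), Kdelc2 (0.947), Cdh2 (0.946) and Znfx1 (0.946). After median-of-ratios scaling, Cmtm3 ranked 1, Iqsec2 ranked 2, Hipk2 3 and Ptk2b 4, while Kdelc2 ranked 225. Without the library labelled MP tumor 10, Iqsec2 ranked 6, Hipk2 ranked 8 and the other 8 ranked 20 to 49.

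Of 29 tested among 30 other genes of smooth muscle contraction, 9 were lower and 0 higher (limma adjusted P under 0.05, against 14.3% and 2.51% of all tested genes), and the median log2 fold change was -1.82. The count of lower genes was 5, 5 and 4 without WT ovary 1, 2 and 3, 14 without MP tumor 5, 16 without MP tumor 9 and 11 without the library labelled MP tumor 10. Of all 17277 tested genes, 1158, 1195 and 1185 were lower without WT ovary 1, 2 and 3, against 2463 with all libraries. The count over all genes was 3144 without MP tumor 5, 3264 without MP tumor 9 and 2968 without the library labelled MP tumor 10. The count in the list was 18 by voom on the recovered reads, a fit in which 23.4% of all tested genes were lower and 10.9% higher. It was 25 with set A alone, with the replicate block and with library number as a covariate, fits in which 57.3%, 56.9% and 49.4% of all tested genes were lower. The calcium-activated potassium channel that relaxes smooth muscle was lower in both of its parts. Its pore Kcnma1 averaged 16.0 ± 4.50 TPM in WT ovaries and 0.416 ± 0.417 TPM in tumors (log2 fold change -3.61, adjusted P = 1.81e-06). Its beta subunit Kcnmb1 averaged 6.37 ± 1.08 TPM and 0.401 ± 0.646 TPM (log2 fold change -2.49, adjusted P = 0.000154). Synm, synemin, which joins desmin filaments to the membrane, had a log2 fold change of -3.70 (adjusted P = 0.00217). Mylk, the kinase that phosphorylates the light chain and a gene chosen after its values were seen, had a log2 fold change of -3.92 (adjusted P = 0.00773), with all 10 tumors below all WT ovaries.

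Of 12 regulators of smooth muscle transcription 5 were lower and 0 higher, with a median log2 fold change of -2.03. The count of lower regulators was 3 without any 1 of the WT ovaries, fits in which 1158 to 1195 of 17277 tested genes were lower. It was 9 by voom (23.4% of all tested genes), 10 with library number as a covariate (49.4%), and 11 with set A alone (57.3%) or with the replicate block (56.9%). Myocd, which encodes the cofactor myocardin, was at 16.2, 11.1 and 6.41 TPM in the WT ovaries and at most at 0.492 TPM in the tumors, with 0 reads in 5 of them. No tumor came near the lowest WT ovary (log2 fold change -3.39, limma adjusted P = 6.11e-07). Prdm6, a repressor of transcription enriched in smooth muscle, had a log2 fold change of -2.46 (adjusted P = 0.00049), and Tgfb1i1, a cofactor at focal adhesions, one of -3.99 (adjusted P = 0.00392). Fhl2 and Klf4 were the other 2 and were named after their values were seen, and Klf4 is known as a repressor of contractile genes. Srf itself, also chosen after its values were seen, averaged 50.3 ± 2.20 TPM in WT ovaries and 46.5 ± 34.0 TPM in tumors, from 2.99 to 99.3 TPM, with no call (log2 fold change -0.81, adjusted P = 0.562). Within set A, Srf was at 2.99 to 5.30 TPM in tumors against 47.8 to 52.0 TPM in WT ovaries (log2 fold change -3.41, limma adjusted P = 4.53e-05). Of 12 relatives used outside smooth muscle 2 were lower, Synpo (log2 fold change -3.95, adjusted P = 0.00276) and Cnn2 (-2.88, adjusted P = 0.00725), and 0 were higher, a share near the 14.3% of all tested genes. By voom 6 of the 12 were lower (23.4% of all tested genes), and 12 of the 12 were lower with set A alone (57.3%), with the replicate block (56.9%) and with library number as a covariate (49.4%).

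**Figure D5:**
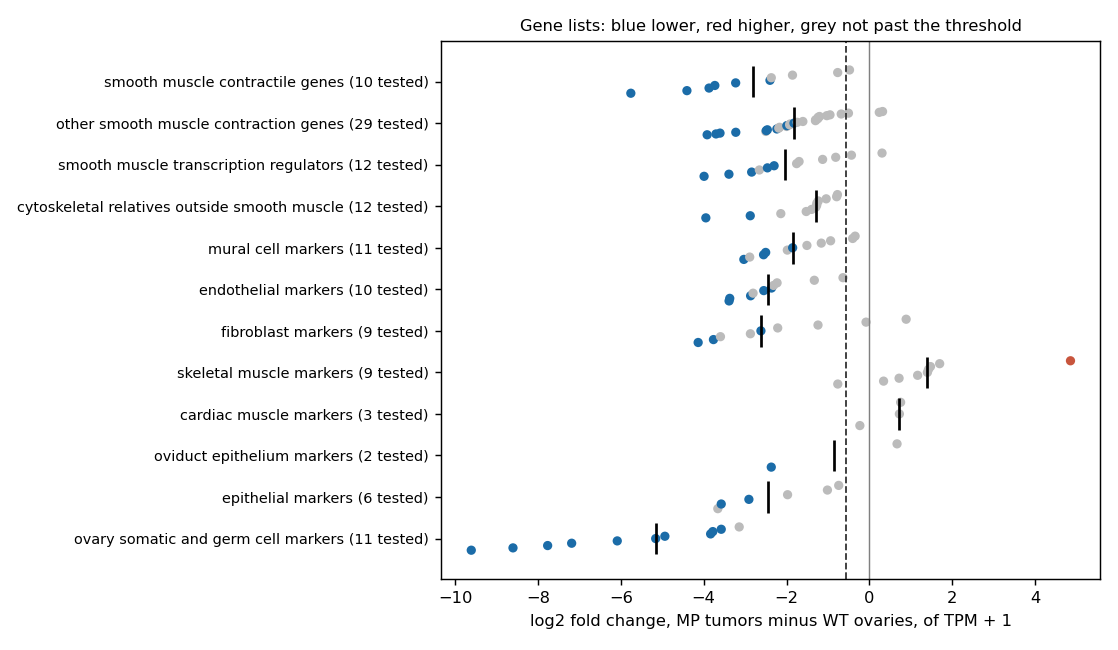
Log2 fold change (MP tumors minus WT ovaries, of TPM + 1) of each tested gene of each list, 1 point a gene, blue where lower, red where higher and grey where not past the limma threshold, with a bar at the list's median and a dashed line at the median of all tested genes (-0.58). The median was -2.81 for the 10 contractile genes, -5.16 for the ovarian markers and 1.40 for the skeletal muscle markers, of which Ckm at 4.85 was the only red point of the plot.

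Some markers of other cells that hold or neighbor smooth muscle were lower, and each list's share may be read against the 14.3% of all tested genes. The count of lower genes over all tested genes was 2463 with all libraries and 1158 to 1195 without 1 of the WT ovaries. It was 3144 without MP tumor 5, 3264 without MP tumor 9 and 2968 without the library labelled MP tumor 10. Without MP tumor 1, 3, 4 or 8 it was 2055 to 2450. With a pseudocount of 0.1 it was 1752, and with no filter 3631 of 32961 genes. Of 11 mural cell markers 4 were lower (Rgs5, Cox4i2, Heyl and Abcc9) and 0 higher, but the count of lower markers was 0 without WT ovary 1 or 3, 1 without WT ovary 2 or with a pseudocount of 0.1, 2 without MP tumor 1, 3, 4 or 8 or with no filter, 5 without the library labelled MP tumor 10, 6 without MP tumor 5 or 9, and 9 with set A alone (57.3% of all tested genes). Their sum was 479 to 552 TPM in WT ovaries and 50.5 to 543 TPM in tumors. Rgs5, a regulator of G-protein signaling in pericytes, changed by -2.56 on the log2 scale (limma adjusted P = 0.011), and Pdgfrb, the pericyte receptor and a gene outside the naming rule, by -2.89 with no call (adjusted P = 0.0627). Of 10 endothelial markers 5 were lower, led by the angiopoietin receptor Tek (log2 fold change -3.37, adjusted P = 0.000785), and 0 higher, with sums of 486 to 525 TPM and 27.9 to 323 TPM. The endothelial count was 2, 2 and 3 without WT ovary 1, 2 and 3, and 9 without MP tumor 5 or 9. With set A alone 10 of 10 endothelial and 7 of 9 fibroblast markers were lower, against 57.3% of all tested genes in that fit. By voom 7 mural, 9 endothelial and 5 fibroblast markers were lower, against 23.4% of all tested genes. Of 9 fibroblast markers 3 were lower (Pdgfra, Lum and Thy1, but only 1 after median-of-ratios scaling and 0 without any 1 of the WT ovaries) and 0 higher. Their sum was 1362 to 2346 TPM in WT ovaries and 116 to 4715 TPM in tumors, the highest in MP tumor 9. Of 6 epithelial markers 2 were lower (Cdh1 and Epcam) and 0 higher, with sums of 226 to 257 TPM and 7.66 to 1144 TPM. Of 6 oviduct markers 2 were tested and 1, Krt7, was lower, but with no call after median-of-ratios scaling, quantile normalization or the correction for gene length, with a pseudocount of 0.1, with no filter, or without any 1 of the WT ovaries or MP tumors 2, 3, 6, 7 or 8. Ovgp1 was higher only after quantile normalization or the correction for gene length. Their sum was 15.1 to 23.1 TPM and 1.19 to 37.4 TPM, with Sprr2f and Dynlrb2 at 0 in all tumors. None of the 3 tested of 7 cardiac markers was called, and the sums of the 7 were 103 to 125 TPM and 13.6 to 669 TPM. Most of these sums was Tnni3, at 113 ± 11.2 TPM in WT ovaries and 316 ± 236 TPM in tumors. Each of the other cardiac markers averaged at most 2.46 TPM in either group.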

How the data were processed

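RNA-seq of whole tissue (polyA-selected, read from 1 end at 76 bp) was available for 3 WT ovaries and 10 MP tumors, grouped by the sample labels. The authors deposited TPM values, with a column for each library and no pooling. The submitters' processing notes name FastQC 0.11.5, Trimmomatic 0.36, STAR 2.5.3a, featureCounts 1.6.3 and the builds mm10 and GRCm38. The labels' protocol names a human build, HTSeq and RPKM instead. Of the table's genes, 96.2% carry the start and end of GENCODE M21 on GRCm38, which was used for gene positions. TPM sums to a fixed total, so a gene's value falls when others take a larger share. TPM times length was a whole multiple of 1 step, within 0.01, in each library, which gave reads per gene. For a gene of 1 kb, a single read corresponded to 0.0513 to 0.109 TPM in WT ovaries and 0.114 to 0.790 TPM in tumors, and limits from a count of 0 cover counting error only.

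Genes with at least 1 TPM in at least 3 libraries were tested as log2(TPM + 1) with limma 3.58.1 (trend and robust, R 4.3.3), without covariates, and P values were Benjamini-Hochberg adjusted over 17277 genes with a threshold of 0.05. Replicates are separate tumors or ovaries by their labels. Ratios were compared by 2-sided exact permutation tests, whose smallest P here is 0.0035. Named genes were the 10 members, up to 3 with the largest limma statistic in each direction in each other list, Actb, Actg1 and the 10 genes most like the members. Other genes named (Mylk, Srf, Fhl2, Klf4, Pdgfrb, Abcc9, Mylpf, Tnni3, Ovgp1, Sprr2f, Dynlrb2 and the targeted Trp53) were named after their values were seen. The members and lists were chosen with earlier results of these data known. Alternatives varied the pseudocount, filter, scaling, library number, replicate block, single libraries, limma options, unit and gene length. The log scale for tumors standing apart, and correlations without MP tumor 10, were added after seeing the data. Replicate numbers 1 to 3 occur in both groups but mark different animals. The fit was tested on simulated data.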

Additional observations from a re-analysis of the deposited data

Results flagged for a closer look

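In each of 13 groups of 10 tumor values (the 10 genes and the 3 ratios), the gap of the highest or lowest tumor to the next was set against the whole range by Dixon's test, with TPM for the genes. Chance passes about 5% of groups of normally distributed values, which TPM values of these tumors are not assumed to be. In 5 groups 1 tumor stood apart. Acta2 was at 1186 TPM in MP tumor 5, against 229 TPM in the next. Des was at 126 TPM in MP tumor 6, with the next at 41.0 TPM. The library labelled MP tumor 10, whose Trp53 level is above that of the WT ovaries, accounted for 3: Myh11 at 22.3 TPM (next 6.79 TPM), Actg2 at 48.3 TPM (next 23.9 TPM), and the log2 ratio of Myh11 to Acta2 at -3.09 (next -5.15). On the log2(TPM + 1) scale, an alternative chosen after seeing the data, the gap of Acta2 in MP tumor 5 was 0.478 of the range and still past the critical value, whereas those of Myh11 (0.352), Des (0.244) and Actg2 (0.207) were not. These values share libraries and genes and are not independent of each other.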

How the results depend on the processing

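Of 230 fold changes of single genes under 23 alternatives each, 210 kept their direction and their side of the threshold, 7 lost and 10 gained a call, and 3 turned in sign (Des 0.015 and Synpo2 0.65 after the correction for gene length, Synpo2 0.25 after quantile normalization). The cause of these turns was not tested. Set A alone, the replicate block and library number as a covariate gave the same fold changes, so they are not separate alternatives for the effect. The count of genes lower ranged from 4 to 9, and Actg2, Cnn1, Lmod1 and Myh11 were lower under every alternative run. It was 4 without WT ovary 1 or 3, where Acta2 and Tagln lost their calls. With the replicate number as a block (WT ovaries and MP tumors 1 to 3) it was 9, but 56.9% of all genes were lower in that fit, and the deviations of same-numbered libraries correlated at -0.0963, -0.0214 and 0.00118, so the numbers were not taken to pair them. Over all genes, 433 were higher and 2463 lower, against 94 to 153 higher and 1158 to 1195 lower without 1 WT ovary, 1274 and 1897 after median-of-ratios scaling, and 1992 and 1596 after the correction for gene length.

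The Myh11 to Acta2 difference was -2.47 with set A alone, where 3 against 3 cannot pass. Leaving out 1 library, it ranged from -2.81 to -2.34, that of Actg2 from -1.42 to -1.02, and that of Des from 2.09 to 2.76. The Des difference lost its unadjusted P under 0.05 with a pseudocount of 0.1 (2.22, exact P = 0.108), with set A alone (2.36, exact P = 0.3) and without any 1 WT ovary or MP tumors 6 to 10. Of 253 counts of lower genes in the other lists under alternatives, 75 moved by more than 1.5 times. Of the 100 tumor values of the 10 genes, 19 rested on fewer than 10 reads, which limits their precision.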
